A study of Mus musculus with 54 samples.

Results

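Pairs of neighbouring peaks at the spacing of 2 provirus ends were collected from the binding sites of 42 KRAB zinc finger proteins (KZFPs). Within each list the peak summits were ordered along each chromosome, and 2 successive summits were kept as a pair when they lay 3000 to 8000 bp apart. The rule kept 1086 of 24163 successive summit pairs (4.49%), built from 25012 peaks, and 1 of the pairs lay on an unplaced scaffold. Distances chose the pairs, so distances are described without a test. Sequence was not used to choose them, and heights only through the authors' threshold.

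The cells were F9, an embryonal carcinoma line of the mouse, and each KZFP was over-expressed in them from a codon-optimized, C-terminally HA-tagged transgene, carried by a Sleeping Beauty transposon vector and kept by a short puromycin selection. Binding was mapped by ChIP-seq through the tag, in 1 library for each KZFP, and set against a mixed input of its batch. The 4 libraries of cells with the empty vector served the authors to remove peaks, and the 3 libraries of HGTC8 mouse embryonic stem cells were not analysed here. No KZFP has a replicate and the peak lists carry no read depth, so the spread given here is between KZFP lists or between loci.

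KZFPs bind DNA through arrays of zinc fingers and recruit the corepressor KAP1 (TRIM28), which brings histone methyltransferases that silence the bound site. Many of their targets are endogenous retroviruses. A provirus of this kind has a long terminal repeat (LTR) at either end, and both are copied from 1 template before it integrates. A protein that binds the LTR can therefore bind a provirus at both of its ends. Intracisternal A particles (IAPs) are a young family of such elements in the mouse. Their internal region carries gag, pro and pol in that order, and the host duplicates a short stretch of 6 bases on either side when one inserts.

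One of the 5 positions that 4 lists shared shows what such a pair looks like in sequence. It lies on chromosome 4 of GRCm39 in an intron of Usp24, a deubiquitinase gene. The stretch around the left summit (chr4:106250084-106250151) and the one around the right summit (chr4:106253409-106253476) are shown on the minus strand, which is the coding strand of the provirus. Capitals mark the matches to the motifs of the 3 KZFPs whose pairs are described most fully.
left LTR: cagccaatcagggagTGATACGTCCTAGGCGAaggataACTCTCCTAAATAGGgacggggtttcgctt
right LTR: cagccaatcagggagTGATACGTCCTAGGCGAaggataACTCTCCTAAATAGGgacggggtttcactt

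The first block of capitals holds the match of Zfp_MB005 over 15 bases and that of Zfp_MB016 over 13 bases, which overlap by 11 bases. The second block is the match of Zfp_MB036 over 15 bases, read on the opposite strand, and 6 bases separate it from the match of Zfp_MB016. The 2 LTRs are 338 bp long and 99.4% identical. Zfp_MB016 had a fold enrichment over input of 207 on the left and 127 on the right, the highest pair of its list by its lower peak. Zfp_MB036 had 92.6 and 67.8, Zfp_MB005 had 30.9 and 51.9, and Zfp_MB026 had 49.7 and 23.6. All 4 lists thus had both ends, with the left peak the higher in every list but that of Zfp_MB005.

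Pairs were concentrated in a few lists. Zfp_MB016 had 727 (11.8% of its successive summits), Zfp982 had 105 (2.22%), Zfp_MB036 had 76 (18.9%), Zfp_MB026 had 67 (1.64%), Zfp_MB005 had 48 (6.61%), Zfp_MB011 had 17 (6.23%) and Zfp_MB018 had 10 (6.71%). A further 15 lists had 1 to 5 pairs each, 36 in all, and 20 lists of 21 to 182 peaks had none. The number of peaks did not order the lists. Zfp982 had 4746 peaks and Zfp_MB026 had 4106, of which 4.21% and 3.21% were in a pair, while 35.4% of the 424 peaks of Zfp_MB036 and 23.0% of the 6183 peaks of Zfp_MB016 were. Spacings just above the limit served as a yardstick. In Zfp_MB016 727 pairs lay 3 to 8 kb apart and 92 lay over 8 to 13 kb apart, a band as wide as the first. The same counts were 76 and 2 in Zfp_MB036, 48 and 4 in Zfp_MB005, 105 and 86 in Zfp982, and 67 and 50 in Zfp_MB026. In the lists with fewer pairs they were 17 and 2 in Zfp_MB011 and 10 and 4 in Zfp_MB018. The excess at the shorter spacing was therefore large in Zfp_MB016, Zfp_MB036 and Zfp_MB005 and small in Zfp982 and Zfp_MB026. In Zfp_MB011 it was also large, but on few pairs, and Zfp_MB018 had few at either spacing.

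The distances fell into clusters in Zfp_MB016, Zfp_MB036 and Zfp_MB005. In Zfp_MB016 276 of the 727 pairs (38.0%) were 6500 to 7000 bp apart, and smaller clusters stood at 3250 to 3500 bp (78 pairs), 3750 to 4000 bp (69) and 4500 to 4750 bp (51). Zfp_MB036 had 43 of 76 pairs (56.6%) at 6500 to 7000 bp. Zfp_MB005 had its main cluster at the short end, with 18 of 48 pairs (37.5%) at 3000 to 3500 bp. Zfp982 and Zfp_MB026 were spread over the whole band, with medians of 4853 and 5420 bp. At the limits of the rule, the closest pair kept was 3004 bp apart, in Zfp_MB036, and the nearest one left out 2995 bp, in Zfp981. At the upper limit these were 7987 bp in Zfp_MB016 and 8033 bp in Zfp982.

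**Figure D1:**
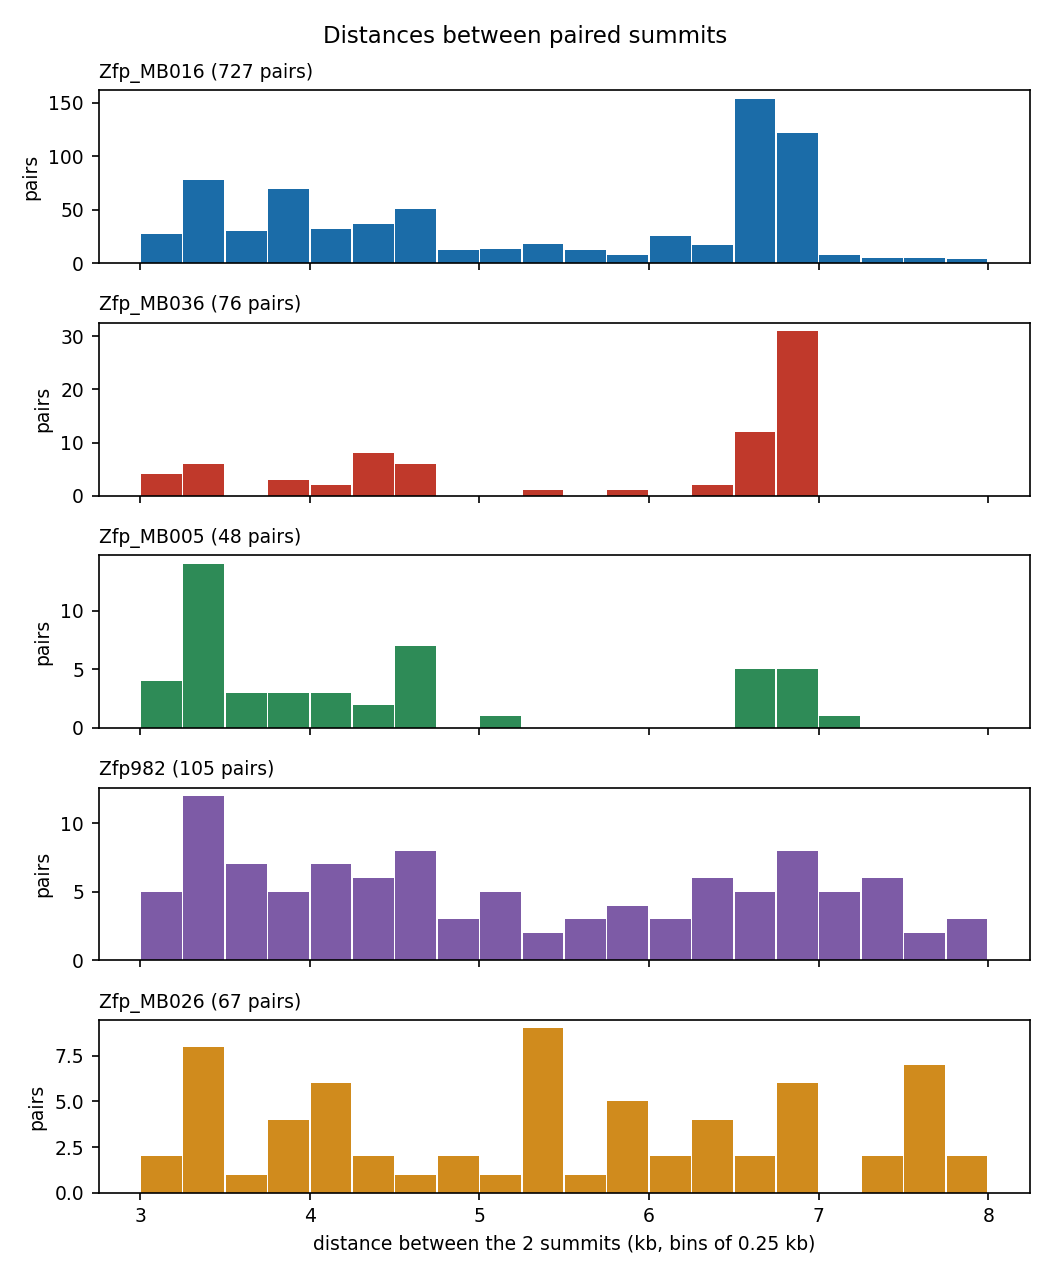
Number of pairs (y axis) by the distance between the 2 summits (x axis, kb, bins of 0.25 kb) in the 5 lists with the most pairs. Zfp_MB016 and Zfp_MB036 peak at 6.5 to 7 kb and have smaller clusters below 5 kb, Zfp_MB005 peaks below 3.5 kb, and Zfp982 and Zfp_MB026 show no single cluster.

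The first question was whether the 2 summits of a pair lie on copies of 1 sequence. The 200 bp around each summit were aligned to each other, and a pair counted as a direct repeat when at least 100 bp aligned in the same orientation at 80% identity or more. Of the 1085 pairs on chromosomes, 796 were direct repeats (73.4%), against 125 of the 1768 successive summits over 8 to 50 kb apart (7.07%). Alignments in opposite orientation were found at 19 pairs (1.75%), against 101 at the wider spacing (5.71%), and these pooled shares were not tested.

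All 76 pairs of Zfp_MB036 were direct repeats, as were 627 of 726 in Zfp_MB016 (86.4%) and 46 of 48 in Zfp_MB005 (95.8%). At the wider spacing the shares in these lists were 40.0% of 5, 9.17% of 600 and 36.4% of 11. In Zfp_MB026 14 of 67 pairs (20.9%) were direct repeats, against 2.56% of 351. In Zfp982 17 of 105 (16.2%) were, against 2.49% of 602. Zfp_MB018 had 5 of 10 and Zfp_MB011 had 4 of 17, against 33.3% of 12 and 25.0% of 8. Outside the first 3 lists, 47 pairs were direct repeats.

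Over the 9 lists with at least 5 pairs at either spacing, the share of direct repeats was 50.3% at 3 to 8 kb and 21.7% at over 8 to 50 kb. It was higher at the shorter spacing in 7 of 9 lists, by 28.6 ± 29.8 percentage points (SD over lists), with p = 0.0156 in a two-sided exact sign-flip permutation test and an adjusted p of 0.0469 over 3 tests. The test takes the lists as independent, but lists share pairs, so p can be too small. Of the loci that the direct repeats of Zfp_MB036 and Zfp_MB005 form, 77.6% and 73.9% are shared with Zfp_MB016. The call depended on the identity asked for and on which lists entered. At 90% identity the difference was 32.1 points over the same 9 lists (exact test, adjusted p = 0.0703). Without Zfp_MB016 the difference was 22.5 points (exact test, adjusted p = 0.0938), and without Zfp_MB016, Zfp_MB036 and Zfp_MB005 it was 10.1 points over 6 lists (exact test, adjusted p = 0.125), a choice made after the data were seen.

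**Figure D2:**
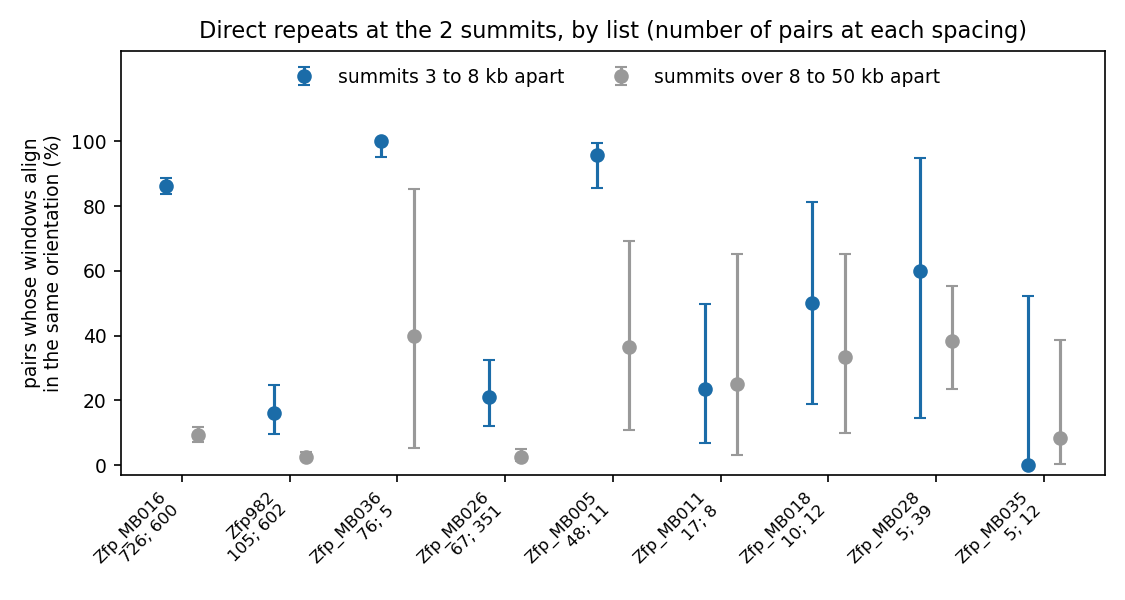
Share of successive summits whose 200 bp windows align in the same orientation (y axis, %) for 9 lists (x axis, with the number of pairs at 3 to 8 kb, then at over 8 to 50 kb). Points are shares and bars are exact 95% binomial intervals, which cover counting error only. The intervals of the 2 spacings are apart in Zfp_MB016, Zfp982, Zfp_MB036, Zfp_MB026 and Zfp_MB005 and overlap in the other 4.

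The aligned units had the size and surroundings of LTRs. When the alignment was extended beyond the windows, 762 of the 796 direct repeats had units of up to 1000 bp. Their median length was 341 bp in Zfp_MB016, 357 bp in Zfp_MB036 and 438 bp in Zfp_MB005, and their median identity was 99.7%, 99.6% and 99.1%. In Zfp_MB016 the 2 units were identical in 178 of 617 pairs (28.8%).

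A direct repeat of 6 bases, as the duplicated target site of a provirus would leave, was then looked for just outside the outer ends of the units. It was found at 553 of 762 pairs (72.6%), against 6 of 81 with units of up to 1000 bp at the wider spacing (7.41%). Those units had a median identity of 84.8% and length of 428 bp, against 99.5% and 343 bp in the pairs. The 2 groups thus differ in more than spacing, and the part of this in the shares was not tested. Zfp_MB016 had it at 459 of 617 (74.4%), Zfp_MB036 at 56 of 72 (77.8%) and Zfp_MB005 at 31 of 46 (67.4%). These shares are not independent, since Zfp_MB036 and Zfp_MB005 have most of their loci in common with Zfp_MB016. None of the 9 units of Zfp_MB011 and Zfp_MB018 had it. The ends of a long provirus on chromosome 5 bound by Zfp_MB016 show it, at chr5:30428037-30428072 and chr5:30435126-30435161 on the plus strand, with the 6 duplicated bases in capitals. The alignment of the units ran 2 bases into the left copy of the duplication, and these were trimmed from the unit here.
left end: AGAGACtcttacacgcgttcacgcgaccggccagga
right end: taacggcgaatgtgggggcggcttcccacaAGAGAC

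The direct repeats of Zfp_MB016, Zfp_MB036 and Zfp_MB005, 749 of their 851 pairs, were next joined into loci where both summits lay within 200 bp, and their other pairs were left out. This gave 655 loci, of which 572 were in 1 list, 72 in 2 and 11 in all 3. Zfp_MB036 shared 77.6% of its loci with Zfp_MB016 and Zfp_MB005 shared 73.9%, which are 9.41% and 5.42% of the loci of Zfp_MB016. Zfp_MB036 and Zfp_MB005 had 12 loci in common, 15.8% and 26.1% of their own. The 3 lists thus met mainly through that of Zfp_MB016, the longest.

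Each locus was aligned to 1 provirus that served as a ruler. The rule for the ruler named the Usp24 locus, but it and the next in rank span 3663 and 3590 bp, so the provirus on chromosome 5 was used instead, a choice made after the data were seen. As aligned, with those 2 bases included, it runs from chr5:30428041 to 30435155 on the minus strand of GRCm39, spans 7115 bp, has LTRs of 336 bp that are 99.7% identical, and had fold enrichments of 99.0 and 117 in Zfp_MB016. Its reading frames of at least 300 codons are 616, 311 and 815 codons long and begin at 497, 2188 and 3321 bp from its 5′ end.

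Of the 655 loci, 652 aligned to the ruler over at least 1000 bp and are called IAP-like, with no repeat annotation used here, 320 of them on the plus strand and 332 on the minus strand. The distance between the summits followed how much of the ruler a locus left unaligned, with Pearson r = -0.947 over 652 loci. This is a description, since the loci share a library and both values depend on length. Complete loci, with no unaligned stretch of 200 bp or more, numbered 268 (40.9%), and their distances had a median of 6743 bp. A further 312 loci fell into 10 classes of at least 10 loci whose longest unaligned stretch had nearly the same ends, and 72 had other gaps.

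The clusters in the distances matched these classes. Class 1 lacked the stretch from 1791 to 4989 bp, had 81 loci and a median distance of 3402 bp. Class 2 lacked 1724 to 3837 bp (80 loci, 4501 bp), class 3 lacked 1724 to 4435 bp (37 loci, 3812 bp), and class 4 lacked 2967 to 5705 bp (25 loci, 3952 bp). Classes 1 to 3 also had a second stretch that did not align, mostly from 1016 to 1671 bp, in 73 of 81, 73 of 80 and 37 of 37 loci. With the longest gap added back, their distances came to medians of 6601, 6611 and 6524 bp, against 6748 bp in complete loci. Their LTR units were also longer, with medians of 441, 442.5 and 471 bp, against 340 bp in complete loci. How much of the second stretch is other sequence and how much is absent length was therefore not settled.

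The lists differed in which classes they held. Complete loci made up 56.6% of the loci of Zfp_MB036, 41.8% of those of Zfp_MB016 and 19.6% of those of Zfp_MB005. Class 1 made up 37.0% of the loci of Zfp_MB005, 13.2% of those of Zfp_MB036 and 12.9% of those of Zfp_MB016. Class 3 had 36 loci of Zfp_MB016, 1 of Zfp_MB005 and 0 of Zfp_MB036, and class 4 had 25 of Zfp_MB016 and none of the other 2. A count of 0 among the 76 loci of Zfp_MB036 allows a share of up to 3.95%. The lists differ in length and in the height their peaks reached, and the part of this in the shares was not tested.

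A further 2 KZFPs had peaks inside these proviruses, between the paired summits. Zfp_MB028 had a summit there, at least 600 bp from both, at 406 of the 655 loci (62.0%), and Zfp_MB026 at 377 (57.6%). In complete loci the summits of Zfp_MB028 had a median position of 5223 bp from the 5′ end (quartiles 5181 and 5271), in the third long frame, and those of Zfp_MB026 of 1500 bp (1466 and 1552), in the first. Either KZFP thus had these inner summits at nearly 1 position of the provirus, in loci spread over the genome. Summits closer than 600 bp to the paired ones were not counted here. Zfp_MB026 also had pairs at both LTRs of some loci, 7 in all, among them the Usp24 locus.

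Loci that did not align over the bound stretch, set here by the quartiles of the summits in complete loci, rarely had the inner peak. Zfp_MB028 had a summit at 404 of 532 loci that kept its stretch (75.9%, exact 95% interval 72.1 to 79.5%) and at 0 of 115 loci that lacked it, which allows a share of up to 2.61% by the limit of 3 counts and 3.16% by the exact interval. Zfp_MB026 had one at 374 of 441 loci that kept its stretch (84.8%, 81.1 to 88.0%) and at 3 of 210 that lacked it (1.43%, 0.296 to 4.12%). By class, Zfp_MB028 was at 80 of 81 loci of class 1, 59 of 80 of class 2 and 29 of 37 of class 3, where Zfp_MB026 was at 7, 2 and 0. In class 4 the order was the reverse, with Zfp_MB028 at 0 of 25 and Zfp_MB026 at 21. Classes 3 and 4 lie at similar spacings, 3812 and 3952 bp, and differed in the inner peak found. The stretches were set by complete loci, which also count among the loci that kept them. A locus that lacks a stretch offers no such sequence for a summit, so the low counts follow largely from the definition. Class 9, which lacked 1316 to 4987 bp and with it the stretch of Zfp_MB026, still had that KZFP at 3 of 12 loci. These loci were chosen by the outer peaks of other libraries, so the inner peaks were not used by the rule, but a peak below the authors' threshold counts as absent.

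**Figure D3:**
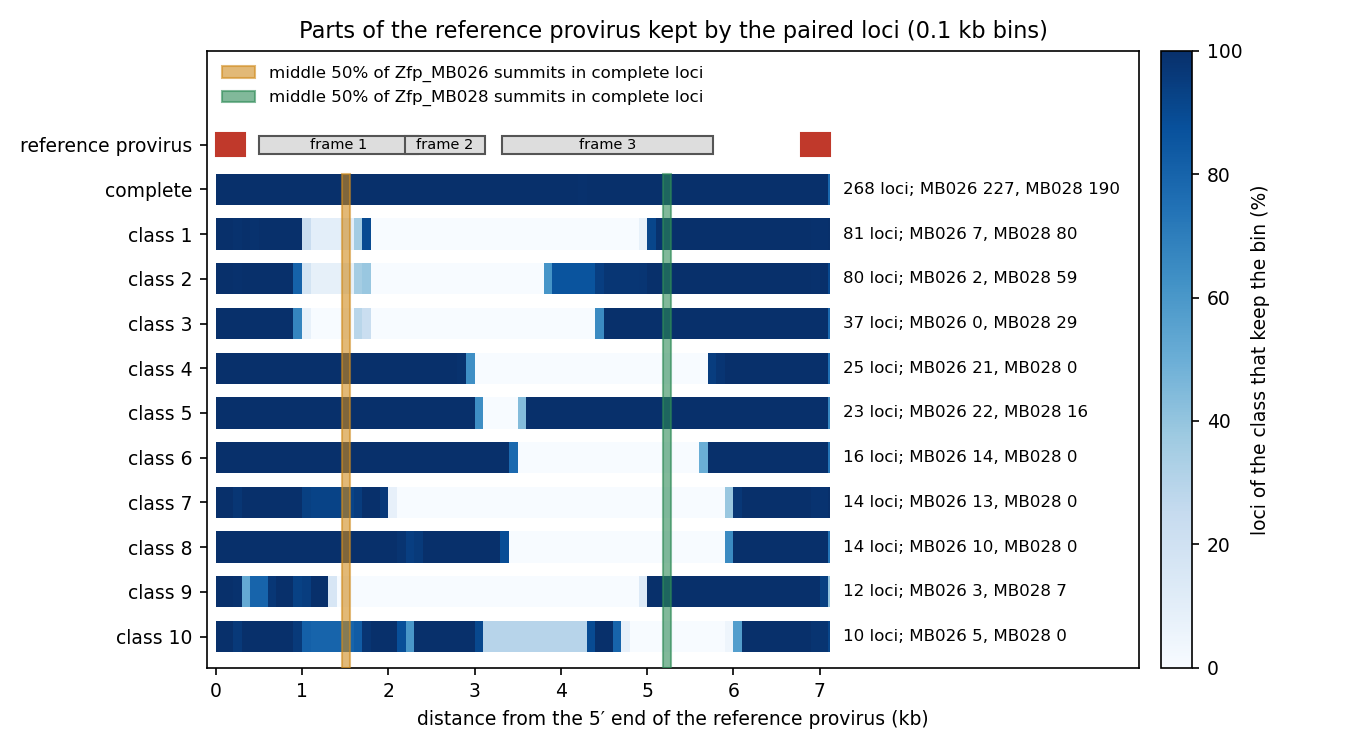
Share of loci that keep each 0.1 kb bin of the long provirus on chromosome 5 (color, %), by class (rows), along the distance from its 5′ end (x axis, kb). Red blocks are its LTRs, grey blocks its 3 long reading frames, vertical bands the interquartile range of the summits of Zfp_MB026 and Zfp_MB028 in complete loci, and the numbers at the right give the loci of the class and how many had a summit of either. Zfp_MB028 was at 0 loci of the 5 classes whose gap covers its band, and Zfp_MB026 at 0 to 7 loci in classes 1 to 3, which mostly lack its band, and at 3 of 12 loci in class 9, which lacks it too.

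The summits lay within part of the LTR. From the 5′ end of the unit, the median position in the 5′ copy was 186 bp for Zfp_MB016, 190.5 bp for Zfp_MB005 and 220 bp for Zfp_MB036, and in the 3′ copy 163, 172.5 and 202.5 bp. The quartiles in the 5′ copy were 175 and 198 bp for Zfp_MB016 and 205 and 264.5 bp for Zfp_MB036, whose summits were the more spread. Summits of the 5′ copy thus lay further into the unit than those of the 3′ copy in all 3 lists. In the sequences printed above, the match of Zfp_MB036 likewise lies downstream of those of Zfp_MB016 and Zfp_MB005, whereas the match of Zfp_MB005 begins upstream of that of Zfp_MB016 and its median summit lay downstream.

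The motifs, taken from the study's table and searched on both strands in 200 bp windows, occurred in both summits of 434 of 627 direct repeats in Zfp_MB016 (69.2%), 53 of 76 in Zfp_MB036 (69.7%) and 24 of 46 in Zfp_MB005 (52.2%). Over all summits of each list they occurred in 39.2%, 39.9% and 18.6%. In each list all pairs with 2 matches had them on the same strand, as a direct repeat gives. Among the 99 other pairs of Zfp_MB016, 15 had 2 matches, 10 of them on the same strand. The motifs came from these same libraries and are no independent evidence. At the 652 loci, searched over 300 bp, the motif of Zfp_MB036 was in both LTRs of 111, of which 54 were in its list (48.6%), against 22 of the 541 others (4.07%). Zfp_MB016 was at 94.6% and 95.9% of the same loci. The loci were taken from these 3 lists, 624 of the 652 with Zfp_MB016, so its high share in both groups was set by that choice. The shares of Zfp_MB036 hold only within loci chosen in this way. The long provirus on chromosome 5 is among those without the motif of Zfp_MB036. Its left LTR shows this at chr5:30428166-30428238 on the minus strand, with the match of Zfp_MB016 in capitals.
left LTR: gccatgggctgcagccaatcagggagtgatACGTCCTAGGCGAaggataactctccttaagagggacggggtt

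The heights of the 2 peaks were close. In 926 of the 1086 pairs (85.3%) they were within 2-fold of each other, the median ratio of the higher to the lower was 1.35, and the widest was 12.4. The right peak was the higher in 552 pairs (50.8%). By list, the median absolute log2 ratio was 0.42 in Zfp_MB016, 0.44 in Zfp_MB036 and 0.27 in Zfp_MB005, where most pairs are direct repeats, and 0.68 in Zfp982 and 0.65 in Zfp_MB026, where most are not. Zfp_MB011 had 0.16, but its list was kept from a fold enrichment of 5, and all its paired peaks are low.

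Set against successive summits over 8 to 50 kb apart, the paired peaks were not shown to be more alike. The median absolute log2 ratio was 0.42 against 0.66 in Zfp_MB016, 0.27 against 0.42 in Zfp_MB005, 0.44 against 0.36 in Zfp_MB036, 0.68 against 0.64 in Zfp982 and 0.65 against 0.72 in Zfp_MB026. Over 9 lists the difference averaged -0.08 ± 0.13 (SD) and was below 0 in 5 (two-sided exact sign-flip permutation test, p = 0.121, adjusted p = 0.121). With the height taken as −log10 q, the difference averaged -0.21 and was below 0 in 8 of 9 lists (exact test, adjusted p = 0.0293). The median height of summits in pairs was above that of the others in 12 of 14 lists, with a mean difference that did not pass the threshold, 0.12 ± 0.26 log2 units (SD over lists, sign-flip permutation test, p = 0.0991, adjusted p = 0.121). With at least 10 summits on either side, all 8 lists showed this direction, by 0.23 on average (exact test, adjusted p = 0.0234).

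Reads that fit several places equally well were placed at 1 of them at random by the authors, and near-identical LTRs share such reads. In Zfp_MB016 the median ratio of the higher to the lower peak was 1.42 in 105 pairs with units under 98% identical, 1.31 in 334 pairs from 98% to under 100%, and 1.30 in 178 identical pairs. Spearman's rho between identity and absolute log2 ratio was -0.11 over 617 pairs, a weak relation. The part of read placement in the balance was not tested.

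With the orientation of the provirus known, the 5′ and 3′ peaks could be compared. In Zfp_MB016 the 5′ peak was the higher at 268 of 624 loci (42.9%, exact 95% interval 39.0 to 46.9%), with medians of 17.9 for the 5′ peak and 19.4 for the 3′ peak. The share was 44.5% on the plus strand and 41.5% on the minus strand, and 42.0% in complete and 43.6% in incomplete loci, so it was below 50% in each of these subsets, although the interval on the plus strand (38.8 to 50.2%) reached past 50%. In Zfp_MB036 the 5′ peak was the higher at 45 of 76 loci (59.2%, 47.3 to 70.4%), and in Zfp_MB005 at 23 of 46, with 6 of 22 on the plus strand and 17 of 24 on the minus strand. The intervals cover counting error over loci of 1 library only.

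**Figure D4:**
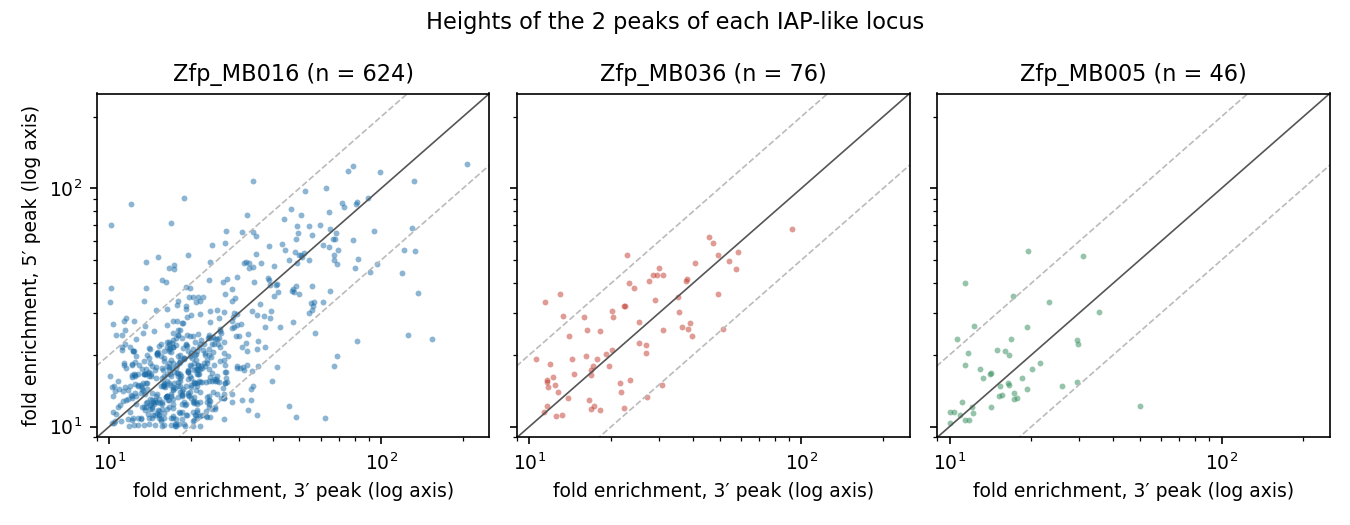
Fold enrichment over input of the 5′ peak (y axis, log) against the 3′ peak (x axis, log) of each IAP-like locus in 3 lists. Each point is a locus, the solid line marks equal heights and the dashed lines a ratio of 2. Zfp_MB016 has 557 of 624 loci between the dashed lines, Zfp_MB036 69 of 76 and Zfp_MB005 40 of 46, and the lower limit of 10 is the authors' threshold.

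The strongest other pairs of these lists were also LTR pairs. The second by the lower fold enrichment in Zfp_MB016 lay on chromosome 3 in an intron of Gm65601, a long non-coding RNA gene, at 144324935 and 144328161, with fold enrichments of 108 and 132. Zfp_MB005, Zfp_MB026 and Zfp_MB036 had pairs there too, as these 3 and Zfp_MB016 had in Gm47034 on chromosome 9. In Zfp_MB036 the second pair lay on chromosome 15 at 96786984 and 96793812, with 58.5 and 54.0 and units 99.7% identical. In Zfp_MB005 it lay in an intron of Frmpd4, which encodes a scaffold protein of synapses, on chromosome X at 166959796 and 166964309, with 30.2 and 35.4. Both summits of a pair lay within 1 gene in 47.8% of the direct repeats of Zfp_MB005, 44.7% of those of Zfp_MB036 and 32.2% of those of Zfp_MB016. Over all lists this held for 34.0% of direct repeats and 47.1% of the other pairs. Among the other pairs of Zfp_MB016 it held for 37.4%. Only 3.19% of the summits in direct repeats of Zfp_MB016 lay within 1000 bp of an annotated transcript start, against 23.4% of all its summits.

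The pairs of Zfp982 were of another kind. Of its 88 pairs that were not direct repeats, 63 (71.6%) had at least 1 summit within 1000 bp of a transcript start. Counted by summit, the share was 48.3% in these pairs, below the 55.9% over all summits of the list. Both summits of its highest pair lay within 1000 bp of a transcript start, at Adgrb2, an adhesion receptor gene, and the non-coding RNA gene Gm54260, on chromosome 4 at 129877546 and 129881795, with fold enrichments of 65.5 and 56.1 and no alignment between the windows. The second lay on chromosome 7 at 44445436 and 44452652, with 42.0 and 49.5, and joined units of 930 bp that are 97.2% identical, within 10 kb of Atf5, a transcription factor gene.

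A tandem array accounted for 10 of the 17 direct repeats of Zfp982. Over 79735 bp of chromosome 8, from 124270724 to 124350459, it had 11 pairs, and all 19 of their summits lay within 200 bp of an annotated 5S ribosomal RNA gene, the small RNA of the large ribosomal subunit. Their distances fell into 3 groups, 5 of 3302 to 3462 bp, 2 of 5030 to 5044 bp and 4 of 6582 to 6854 bp, and the fold enrichments ran between 11.3 and 69.2. Near-identical gene copies share reads, so the height at any 1 copy is uncertain.

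Of the 14 direct repeats of Zfp_MB026, 7 were at loci of Zfp_MB016, Zfp_MB036 or Zfp_MB005. Its other 53 pairs could hardly be, since those loci are direct repeats by construction. Its highest pair joined the promoter of Csrp2, a LIM domain protein gene, on chromosome 10 at 110767820 with a site in an intron at 110774455, with fold enrichments of 42.7 and 56.9. The second lay within Larp4b, an RNA-binding protein gene, on chromosome 13 at 9157493 and 9164353, with 38.1 and 49.8. Neither showed an alignment between the windows.

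Some pairs of Zfp_MB011 and Zfp_MB018 lay at copies of small nuclear RNA genes, whose products form the spliceosome. On chromosome 12, from 54757195 to 54785300, Zfp_MB011 and Zfp_MB018 had 4 pairs each and Zfp_MB003 had 1. Of these 9 pairs 4 aligned in the same and 5 in opposite orientation, and 10 of their 14 summits lay within 200 bp of a small nuclear RNA gene. On chromosome 11, from 87313791 to 87339571, Zfp_MB011 had 2 pairs and Zfp_MB018 had 1, all direct repeats. The cluster there holds the U1 gene Rnu1a1 and also Snord3b1 and Snord3b3, which are small nucleolar RNA genes. Which of these genes the summits lay at was not separated. The fold enrichments at both places ran between 5.22 and 17.6. The second pair of Zfp_MB011 lay in the stretch on chromosome 12 at 54781385 and 54785300, with 8.47 and 8.80 and units 86.9% identical.

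Pairs of another kind recurred near the end of chromosome Y. Between 90729943 and 90829744, a stretch of 99801 bp with the non-coding RNA genes Gm57952 and Erdr1y and the pseudogene Mid1-ps1, 10 lists had 28 pairs, of which 1 was a direct repeat. They include all 5 pairs of Zfp_MB035, all 4 of Zfp600, 3 of 4 of Zfp980, 5 of 17 of Zfp_MB011 and 4 of 10 of Zfp_MB018. Lists with 1 to 5 pairs had 17 of their 36 pairs on this chromosome.

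The same positions came back in several lists there. The pair at 90742350 and 90745728 had fold enrichments of 22.9 and 20.2 in Zfp_MB018, its highest pair, and lists of Rex2, Zfp600 and Zfp_MB011 had it within 200 bp, with 17.9 and 10.6, 10.1 and 6.44, and 6.33 and 10.2. The pair at 90729948 and 90737543 was in Zfp_MB018, Zfp_MB035, Zfp600 and Zfp980. The second pair of Zfp_MB018 lay in Erdr1y at 90810483 and 90814876, with 16.9 and 19.7, and the highest of Zfp_MB011 joined 90745729 and 90751717, with 10.2 and 9.19. On chromosome X, between 169069076 and 169108511, 4 lists had 6 pairs at Nlgn4l, a neuroligin gene, Akap17a, a kinase anchor and splicing protein gene, and Asmt, the last enzyme of melatonin synthesis. The genes of this stretch and of Erdr1 lie at the pseudoautosomal region, which X and Y share. The pairs on X held no direct repeat, and the lists with pairs on X or Y come from several batches.

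**Figure D5:**
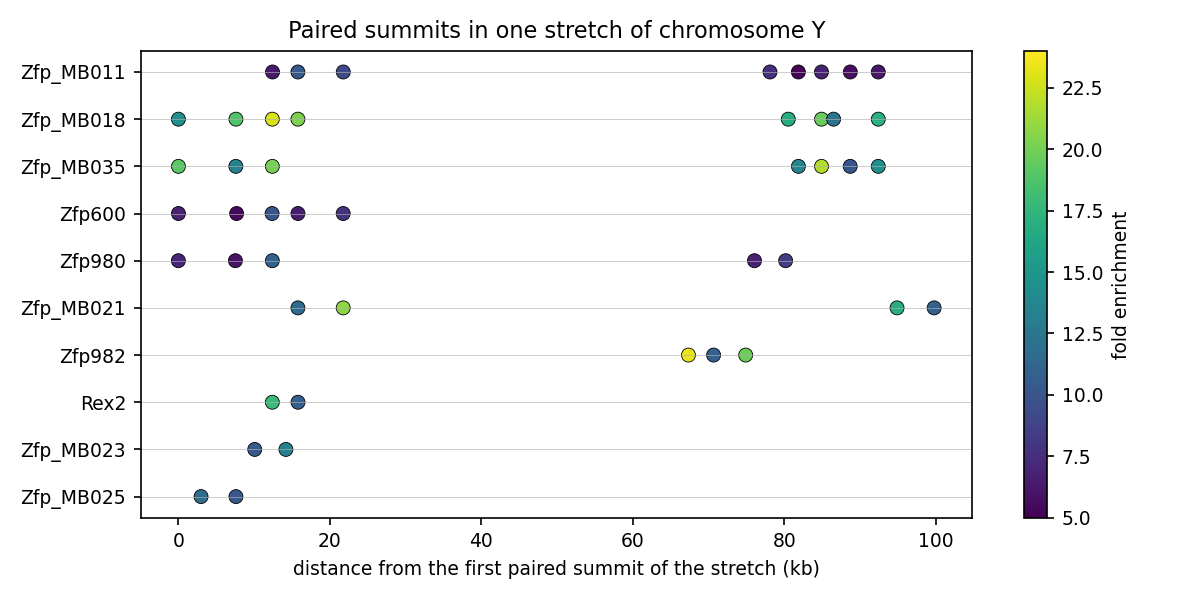
Paired summits of 10 lists (rows) in a stretch of chromosome Y, by their distance from the first one (x axis, kb). Each point is a summit and its color the fold enrichment over input, between 5.20 and 23.4. Several lists have summits at the same places, and others stand where no other list has one, such as the 3 of Zfp982.

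Over all 42 lists the 1085 pairs on chromosomes lay at 964 distinct positions, of which 97 were in at least 2 lists, 14 in 3 and 5 in 4. The 5 positions in 4 lists are the IAP loci in Usp24, in Gm65601 and in Gm47034 and 2 positions on chromosome Y. Both kinds thus recur, with direct repeats at the first and none at the second. The positions on Y reach 4 lists only with lists kept from a fold enrichment of 5.

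The lists with few pairs held a small number of direct repeats, 7 of 36. All 3 pairs of Zfp_MB022 were direct repeats, 3306 to 5008 bp apart, with units of 504 to 575 bp that are 89.4 to 99.8% identical and fold enrichments of 10.2 to 15.3. These units are longer than the median units of Zfp_MB016, Zfp_MB036 and Zfp_MB005. In Zfp_MB028, 3 of 5 pairs were direct repeats with units longer than 1000 bp, and the single pair of Zfp_MB029 was another. The single pair of Zfp981 lay within Nlgn4l. The 4 pairs of Zfp_MB001 showed no alignment.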

How the data were processed

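ChIP-seq peaks of 42 KZFPs, 1 library each, were analysed. Per the submitters' notes and the study's methods, BWA placed the reads on GRCm39, with 1 of several equal matches kept at random, and the authors called peaks with MACS2 2.2.7.1 against a mixed input per batch. They kept peaks with a fold enrichment (the deposited ratio to input) of at least 10, or 5 where fewer than 20 remained, and removed those that overlapped a peak of an empty-vector control, which can remove a partner. The deposited −log10 q-values served as an alternative height.

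Summits (start plus offset) were paired within lists. Windows of 200 bp from GRCm39 were aligned locally (Biopython 1.88), loci were aligned to a provirus with blastn 2.17.0 and annotated with GENCODE. Lists were compared by two-sided sign-flip permutation tests (exact under 10 lists, otherwise 100000 resamples), adjusted by Benjamini-Hochberg over 3 tests, and the scripts were tested on simulated data. Pairs named are the 2 with the highest lower fold enrichment in lists with at least 10 pairs and those in most lists. Other loci were chosen after their values were seen. The pairs, lists and tests were chosen with earlier results of these data known. Alternatives covered identity, window, spacing, threshold, list and batch. Read depth is not in the files used here. Intervals are exact 95% binomial intervals.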

Additional observations from a re-analysis of the deposited data

How the results depend on the processing

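No paired analysis was possible because each KZFP has 1 library, which leaves no replicates to block on. The tests compare the 2 spacings within each list. The higher share of direct repeats at 3 to 8 kb kept its direction under all 10 alternatives. The difference of 28.6 percentage points was 32.2 with 400 bp windows and 41.0 with all spacings over 8 kb, still past the threshold. It was no longer past it at 90% identity (32.1), with spacings to 13 kb only (34.1), with at least 10 pairs at either spacing (37.1), for peaks of at least 15-fold (41.8), within batch 4, the only one with 3 or more lists (33.4), without Zfp_MB016, the list with most pairs (22.5), and without Zfp_MB005, Zfp_MB016 and Zfp_MB036 (10.1). With 4 lists, an exact test cannot go below p = 0.125, and with 5 lists below 0.0625, so these say nothing of stability. The cause of the loss at 90% identity was not tested. No 2 lists of these tests share a fingerprint array, so 1 list for each array gave the same value. Lists do share positions, which the tests do not allow for. The height balance difference of -0.08 passed the threshold with −log10 q only (-0.21), and the peak height difference of 0.12 with −log10 q (0.55) and with at least 10 summits on either side (0.23). For peaks of at least 15-fold, 538 pairs were left of 1086, and the reason for the drop was not tested. Joining close summits left 1086, leaving out scaffolds 1085. Positions shared by several lists numbered 101 within 500 bp. Loci with no unaligned stretch of 200 bp or more numbered 209 with either short provirus of the rule and 268 with either long one. Without the dense stretches of chromosomes 8, 11, 12, X and Y, 778 direct repeats were left. Each KZFP has 1 library of over-expressed protein in F9 cells, whose strain differs from that of the reference genome, so insertions the reference lacks are not seen, and a pair that lost a peak to the threshold or the control filter is not counted.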

Other observations

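Other KZFPs also had peaks inside the 655 loci, from lists of very different length. Gm21411, with 90 peaks, had a summit between the paired peaks at 28 loci (4.27%). Zfp_MB001, with 1153 peaks, and Zfp_MB037, with 54, had one at 16 each (2.44%). Zfp_MB028 had 1424 peaks and Zfp_MB026 had 4106. In complete loci, the 8 summits of Gm21411 had a median position of 5264 bp from the 5′ end, near those of Zfp_MB028 at 5223 bp. The 14 summits of Zfp_MB001 stood at 2186 bp and the 8 of Zfp_MB037 at 1069 bp, so 4 separate places of the internal region were bound. Zfp982, with 4746 peaks, had none inside these loci, and neither had Zfp_MB014, with 1252.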
